A study of Drosophila melanogaster with 2 samples.

Results

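Sob (sister of odd and bowl) bound some places in the genome of the Drosophila melanogaster embryo where start sites of several protein-coding genes lie close together. The 392 regions described here are the peaks whose summit, the base of highest signal, lay within 1000 bp of start sites of at least 2 protein-coding genes without lying in the gap between 2 genes that are transcribed away from each other. They were chosen by position alone, from the larger peak list made from both replicates, and they are 392 of its 7001 peaks on the 6 main chromosome arms. This is 5.60% of the list, with a 95% Wilson interval of 5.08 to 6.16%. Summits inside the gap of such a divergent pair formed a separate class of 1187 peaks. A further 1733 peaks had their summit upstream and 869 downstream of the start of a single gene.

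The data are ChIP-seq peak lists from whole embryos aged 0 to 24 h of the strain sob-GFP, which carries a Sob-eGFP fusion. The chromatin was precipitated with an antibody against GFP, and there was 1 group with 2 biological replicates. Whole embryos of a day-long collection mix all tissues and stages, so a peak cannot be placed in a cell type, and the tagged protein alone was seen by the antibody. With 1 group of 2 replicates no test over samples can be made, so the values below are set beside the divergent class, the single-gene classes and all main-arm peaks. The larger list came from both replicates, with 4490 peaks in replicate 1's own list and 4626 in replicate 2's, and the spread between those 2 lists is given as the error. The intervals cover counting error only. The sequencing depth is unknown, because the files give no counts.

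Sob belongs with Odd, Drm and Bowl to the odd-skipped family of zinc-finger transcription factors, first known from the segmentation and gut patterning of the fly embryo. The Drosophila genome is compact. Neighbouring genes may share a promoter region, overlap, lie nested in one another, or even be read from a single transcript that carries several coding regions. At such places the assignment of a peak to a gene is ambiguous, and the distance and strand of the start sites are the available guide. Many broadly expressed fly genes carry promoter elements such as the DREF element TATCGATA, whose core CGATA is also bound by BEAF-32, and motif 1, whose core GGTCACAC is bound by M1BP.

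The stretches below come from some of the strong summits and from the strongest that carry either promoter element. They were read from the RefSeq genome (release 6, the same coordinates as dm6), are written on the plus strand, and hold the summit's surroundings. Capitals mark TATCGATA or, on either strand, GGTCACAC. Where the surroundings run into an annotated untranslated region, 30 bases around the element are shown. Other strong summits are described without sequence, among them some in an intron or between genes. The stretches are therefore not the highest signals in order. The first 4 are among the highest signals and carry neither element.
CG33169/CG33170 (chr3L:22863740-22863840): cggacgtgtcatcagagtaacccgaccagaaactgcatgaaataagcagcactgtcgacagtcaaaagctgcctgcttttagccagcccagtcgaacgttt
Dhc64C/LeuRS-m (chr3L:4824940-4825040): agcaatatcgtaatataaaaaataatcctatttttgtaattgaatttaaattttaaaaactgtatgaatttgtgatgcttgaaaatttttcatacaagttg
CG31808/Cyt-c-d (chr2L:16716288-16716388): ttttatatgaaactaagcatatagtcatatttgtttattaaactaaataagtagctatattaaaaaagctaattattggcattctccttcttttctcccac
fray/CG7694 (chr3R:18584194-18584294): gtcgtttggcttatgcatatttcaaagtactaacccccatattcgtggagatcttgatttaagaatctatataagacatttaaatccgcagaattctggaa
Rab8/Usp32 (chr3L:19871078-19871107): gcgccgtcgtcTATCGATAgcttatcgtac
P5CDh1/CG14563 (chr3L:21841407-21841436): aacactgtccatagcTATCGATAaggcgcc
Stt3A/bves (chrX:21053286-21053386): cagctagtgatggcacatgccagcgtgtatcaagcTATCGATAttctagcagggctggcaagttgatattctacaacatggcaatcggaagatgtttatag
mRpS18B/Kua (chr2L:20097239-20097268): cgatacatgacTATCGATAcattcaggggc
P5cr/GatA (chr3R:19028889-19028918): gaatatctGGTCACACcaaagctcagagga
CG6664/CG7728 (chr3L:17016006-17016035): acagtgcagaaGTGTGACCgtatatgtggc
l(3)73Ah/CG32163 (chr3L:16588160-16588260): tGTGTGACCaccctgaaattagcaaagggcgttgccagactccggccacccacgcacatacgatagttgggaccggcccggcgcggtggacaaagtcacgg
RpLP1/CG13690 (chr2L:419923-419952): gtcatcggcgcGGTCACACtgcatatcaac

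The strong sequences differed widely in base composition. Within 50 bp of the summit, G and C made up 19.8% of the bases at Dhc64C/LeuRS-m and 24.8% at CG31808/Cyt-c-d, against 50.5% at CG33169/CG33170. The capitals sit at different distances from the summit, and 20 of the 392 windows held TATCGATA.

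The label of tandem or overlapping promoters held for a minority of the members. The nearest start sites of 2 genes lay on the same strand at 132 summits, 33.7% of the members with an interval of 29.2 to 38.5%. At 22 summits, 5.61% of the members, the pair lay on opposite strands with the starts facing each other, so that the genes run into or through one another. These 154 summits have the arrangement that the label names. At the remaining 238, or 60.7%, the nearest starts belonged to genes on opposite strands transcribed away from each other, and the summit lay outside their gap. In the replicates' own lists the same rule found 187 summits in replicate 1 and 309 in replicate 2, which were 4.18% and 6.68% of these lists. Same-strand pairs made up 43.3% of those in replicate 1 and 31.7% of those in replicate 2.

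**Figure D1:**
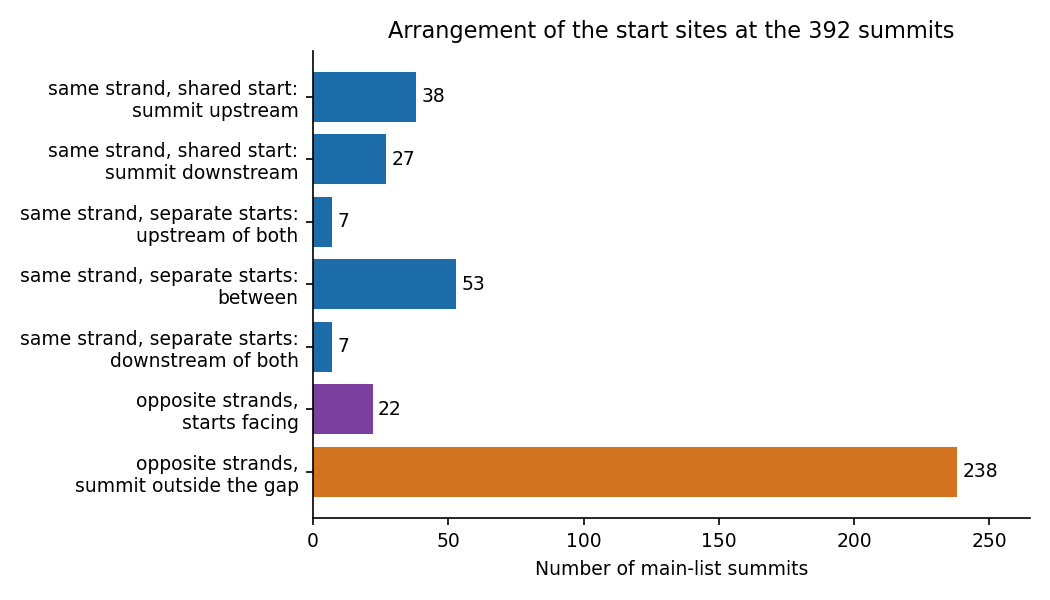
Number of main-list summits in each arrangement of the nearest start sites of 2 genes, coloured blue for the same strand, purple for facing starts and orange for summits outside the gap of a divergent pair. The orange bar holds 238 of the 392 summits, and the largest blue bar holds the 53 summits that lie between separate starts.

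Most members had exactly 2 protein-coding genes within reach (366 summits), while 23 had 3 and 3 had 4. They touched 722 genes, which is 5.18% of the 13945 protein-coding genes on these arms. Of these genes, 635 had a single member summit, 87 had at least 2, and no gene had more than 3. The nearest genes formed 357 different pairs, and 213 of the 722 genes were also within 1000 bp of a summit of the divergent class.

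Signal at these summits was below that of the list as a whole when every annotated start site was used, and equal to it, with a ratio of medians of 1.00, when 1 start site per gene was used. The authors' signal per peak has no stated scale and is used here only within a list. Its median was 117.6 at the members, with quartiles of 90.3 and 177.3, against 180.0 in the divergent class and 133.4 over all main-arm peaks. The median was thus 0.88 of that of all peaks, and it was 0.87 in replicate 1's own list and 0.90 in replicate 2's. For the divergent class this ratio was 1.35, with 1.26 in replicate 1 and 1.19 in replicate 2. In each of these lists, therefore, the members stood below all peaks and the divergent class above them. The members supplied 60 peaks of the highest 25% of signals, 15.3% of their number, against 41.2% of the divergent class. Among the 250 highest peaks 12 were members and 75 were of the divergent class. Of all main-arm peaks the members were 5.60% and the divergent class 17.0%.

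The arrangement of the starts split the members. The median signal was 159.3 at same-strand pairs with separate starts, 145.5 at facing starts, 119.1 at same-strand pairs with a shared start and 107.8 outside the gap of divergent pairs. Relative to all peaks of the same list, the summits outside the gap stood at 0.81 in the main list, 0.79 in replicate 1's own list and 0.87 in replicate 2's, below all peaks each time. Facing starts stood at 1.09, 1.34 and 0.99 in those lists. Separate same-strand starts stood at 1.19, 0.91 and 1.04, and shared starts at 0.89, 1.11 and 0.98. The order of the last 3 arrangements against all peaks therefore differed between the lists. Single-gene summits showed the same contrast of sides, with 147.2 upstream and 111.4 downstream of the start.

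**Figure D2:**
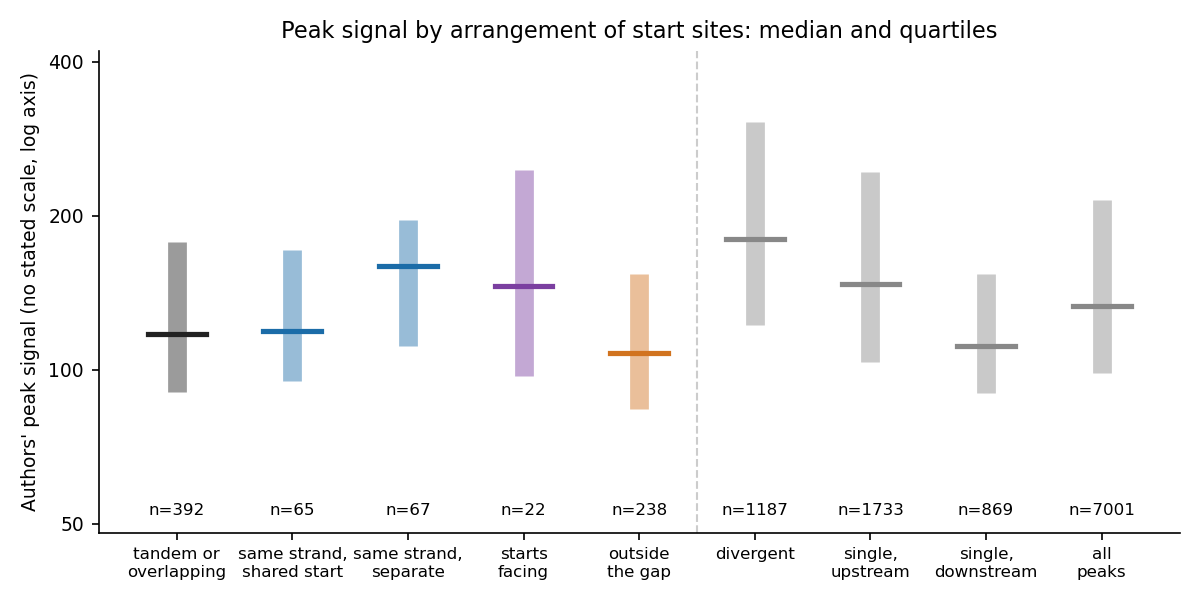
Median (line) and quartiles (bar) of the authors' peak signal, on a log axis, for the tandem or overlapping class and its arrangements on the left of the dashed line, and for the divergent, single-gene and all main-arm peaks on the right. The 238 summits outside the gap have the lowest median of the coloured arrangements, 107.8, and the divergent class has the highest of all groups, 180.0.

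The 12 strongest members spanned all 3 arrangements. The highest signal, 2065, was at Adf1/Dpit47, with 1432 in replicate 1 and 653 in replicate 2. Adf1 encodes a transcription factor and Dpit47 an Hsp90 co-chaperone. The summit lay in an intron of Adf1, 790 bp inside the gene, and a weaker peak with a signal of 112 lay in the gap of the pair. The next was eIF6/ytr, with 1951 in the main list, 1129 in replicate 1 and 838 in replicate 2. eIF6 is a translation initiation factor that acts in ribosome assembly. This summit was 105 bp upstream of eIF6 and at the same time 667 bp inside ytr, in an intron.

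CG8320/Pex11ab, with 1902, and CG9147/Fbw5, with 1745, followed, both outside a divergent gap. Pex11ab acts in the division of peroxisomes and Fbw5 is an F-box protein. Their summits were 84 and 13 bp inside the CG-numbered gene of the pair. At CG8320/Pex11ab the own lists held 1083 in replicate 1 and 835 in replicate 2, and at CG9147/Fbw5 857 in replicate 1 and 896 in replicate 2. These 4 summits were in the first 26 places of the main list, and each of them was in both own lists.

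The rest of the 12 strongest had signals of 631 to 1313. At tank/CG12194 (1313) the summit lay 134 bp inside tank. At Sesn/CG46429 (1185), where Sesn encodes the stress-response protein sestrin, it lay 226 bp upstream of a start that both genes share. CG33169/CG33170 (873) had its summit 74 bp upstream of the first gene. Dhc64C/LeuRS-m (851) pairs the cytoplasmic dynein heavy chain with the mitochondrial leucyl-tRNA synthetase, and its summit lay 697 bp inside Dhc64C. Ufsp1/Cyp6u1 (631), a UFM1 protease and a cytochrome P450, had starts 107 bp apart on the same strand. The other 3 of the 12, CG13501/Snp, CG31808/Cyt-c-d and Adck1/CG4741, had facing starts.

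Same-strand pairs came in 2 forms. In 65 summits at 52 pairs, transcripts of both genes begin at the same annotated base. All 52 of these pairs have overlapping gene bodies, which follows from the shared base and is no separate result. The summits lay at a median of 53 bp upstream of the shared start, between 936 bp upstream and 952 bp downstream, and 26 were within 250 bp upstream.

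Upstream and downstream summits of shared starts differed in signal and in recovery. The 38 upstream summits had a median signal of 155.3, against 99.6 for the 27 downstream ones. Of the upstream summits 57.9% (42.2 to 72.1%) were in both replicates' own lists, against 22.2% (10.6 to 40.8%) of the downstream ones. In replicate 1 the shares were 68.4% upstream and 25.9% downstream, and in replicate 2 they were 78.9% upstream and 59.3% downstream. The side with more recovered summits was the same in both replicates, but in replicate 2 the intervals of the upstream and downstream shares overlapped. Single-gene summits had the same direction, with 49.7% upstream and 28.8% downstream of the start in both own lists, against 43.4% of all main-arm peaks.

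The strongest shared starts after Sesn/CG46429 belonged to fray/CG7694, Irk1/CG46310 and Nsun5/CG42359. fray encodes a kinase that regulates ion transport, and its pair carried 2 summits at 2 different shared starts. The first had a signal of 607, with 330 in replicate 1 and 258 in replicate 2, and lay 229 bp upstream. The second had 413, with 179 in replicate 1 and 219 in replicate 2, and lay 868 bp downstream of its start. Irk1, an inwardly rectifying potassium channel, had 471 at a summit 375 bp upstream, with 238 in replicate 1 and 232 in replicate 2. Nsun5, an RNA methyltransferase, had 468 at a summit 54 bp upstream.

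Weaker shared starts included a ribosomal protein gene and loci where several coding regions are read together. At RpS27A/Ip259 the summit lay 87 bp upstream of the common start with a signal of 288, and it had 159 in replicate 1 and 143 in replicate 2. RpS27A encodes a ubiquitin fused to a ribosomal protein. The tarsal-less locus, whose single transcript encodes several short peptides annotated as tal-1A, tal-2A, tal-3A and tal-AA, was 1 of the 3 members with 4 genes. Its summit lay 133 bp upstream with a signal of 130, and it was in replicate 2's own list (97.4) but not in replicate 1's.

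The other 2 members with 4 genes lay at Ada2a/Polr2D/moi/Tgs1, where Ada2a (a subunit of histone acetyltransferase complexes) and Polr2D (an RNA polymerase II subunit) share their start. Both were inside the genes, 623 and 420 bp downstream of that start, with signals of 59.0 and 4.58, and neither was in either own list. Sites of 3 genes included Ndfip/Krn/CG7484, where Krn is a ligand of the EGF receptor. Its summit lay 633 bp downstream of the shared start with a signal of 295.0, and it had 124 in replicate 1 and 171 in replicate 2.

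The second form had separate starts on the same strand, at 67 summits. At 53 of them the summit lay between the starts, at 7 upstream of both and at 7 downstream of both. The starts around the 53 summits were a median of 920 bp apart. These summits lay a median of 785 bp downstream of the first gene's start and 105 bp upstream of the second gene's start. The second gene's start was the nearer one at 46 of the 53, and 37 lay within 200 bp upstream of it. Gene bodies were apart at 39 of the 53, overlapped at 4 and were nested at 10. Of the 53 summits 22 were inside the body of the first gene, and 8 were in a 3′ untranslated region.

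Below eIF6/ytr and Ufsp1/Cyp6u1, the strongest summit between separate starts was at sotv/CG10731, which had a signal of 458, with 242 in replicate 1 and 220 in replicate 2. Its summit lay in a 3′ untranslated region 120 bp upstream of sotv, which encodes an enzyme of heparan sulfate synthesis. Gmppa/Vha14-1 had 373, with 196 in replicate 1 and 179 in replicate 2, at 239 bp upstream of Gmppa and 889 bp downstream of the start of Vha14-1, a subunit of the vacuolar proton pump. CG34117/RpL34b had 317, with 172 in replicate 1 and 140 in replicate 2, and its summit lay 67 bp upstream of CG34117.

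Summits upstream of both or downstream of both separate starts were few. cer/SdhA had its summit 73 bp upstream of cer, an inhibitor of cathepsins, and 874 bp upstream of SdhA, a subunit of succinate dehydrogenase, with a signal of 199. Trl/CG42507 had its summit 117 bp downstream of the start of Trl, which encodes the GAGA factor, with a signal of 376. Its own-list signals were 199 in replicate 1 and 172 in replicate 2. Over all same-strand pairs, the 34 summits downstream of both starts had a median signal of 102.6, against 151.2 for the 45 upstream of both and 161.7 for the 53 between. Both own lists held 23.5% (12.4 to 40.0%) of the first, 55.6% (41.2 to 69.1%) of the second and 52.8% (39.7 to 65.6%) of the third, against 43.4% of all main-arm peaks, which lies within the intervals of the second and the third.

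Facing starts were rare but included strong summits, and 40.9% (23.3 to 61.3%) of the 22 were in the highest 25% of signals. CG13501/Snp had 967, with 630 in replicate 1 and 339 in replicate 2, in an intron 288 bp upstream of CG13501 and 855 bp inside Snp, an exonuclease gene. CG31808/Cyt-c-d had 760, with 389 in replicate 1 and 368 in replicate 2, 143 bp upstream of CG31808 and 377 bp inside Cyt-c-d, which encodes one of the fly's cytochromes c. Adck1/CG4741 had 716, with 385 in replicate 1 and 347 in replicate 2, at 93 bp upstream of Adck1, which encodes a mitochondrial protein of the ADCK kinase family. In all 3 the summit was upstream of one gene and inside the other.

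The pair lawc/Trf2 held 2 facing summits. Trf2 encodes the TBP-related factor that serves promoters without a TATA box. The stronger summit, 104 bp inside lawc, had 300 in the main list with 66.9 in replicate 1 and 231 in replicate 2. The weaker, 51 bp inside Trf2, had 105 and was in replicate 2's own list (68.8) but not in replicate 1's. Ogdh/Cpr73D had 227, with 125 in replicate 1 and 100.5 in replicate 2, in an intron, and joins a subunit of the oxoglutarate dehydrogenase complex to a cuticle protein.

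By construction, the 238 summits outside the gap of a divergent pair all lay downstream of the nearer start, on the side of the gene that begins there. They were a median of 75.5 bp beyond that start, with quartiles of 25 and 208 bp and a maximum of 807 bp. Of these summits 48 (20.2%) were within 20 bp and 140 (58.8%) within 100 bp of the start. The gaps of their pairs had a median of 324.5 bp, against 312 bp in the divergent class. At 20 bp, 11.4% of the divergent class lay as close to the nearer start on its other side. A boundary of a few bases thus separates part of the members from that class, with eIF3h/senju and Taz/mRpL18 both 3 bp past a start and ATPsynbeta/CG11076 1 bp past one.

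The class found for such summits differed between the replicates. The counterpart of a member was the strongest own-list peak that shared at least 1 bp with it. Where peaks overlap, the counterpart can thus be a neighbouring peak in the gap, and how often this happened was not tested. Where a member outside the gap had a counterpart in replicate 1's own list, the counterpart's own summit stayed in the same class in 66 of 112 cases (58.9%) and fell in the divergent gap in 45. In replicate 2 it stayed in 130 of 152 cases (85.5%) and fell in the gap in 21. Same-strand members stayed in 75 of 78 cases in replicate 1 and 89 of 90 in replicate 2, facing members in 12 of 13 and 18 of 18, and divergent-class peaks in 945 of 959 and 809 of 846. The summits of the 155 members found in both own lists differed by a median of 19 bp between replicates, close to the 20 bp of the 3037 such peaks in all.

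**Figure D3:**
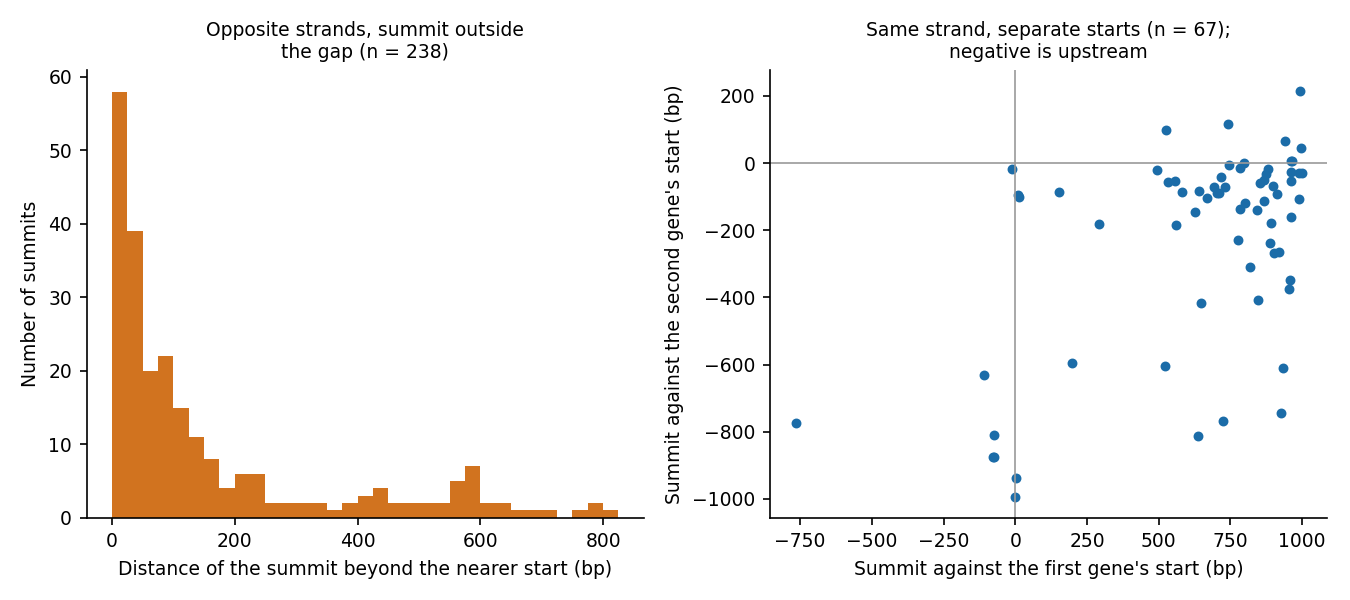
Left, number of summits by their distance in bp beyond the nearer start, for the 238 summits outside the gap of a divergent pair. Right, position of the 67 summits at separate same-strand starts against the start of the first gene and of the second gene in bp, with negative values upstream. On the left most summits lie within 100 bp of the start, and on the right most points lie downstream of the first start and just upstream of the second.

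Some of these summits accompanied a peak in the gap. At 89 of the 238, or 37.4%, the same pair also had a divergent-class peak, and that peak was the stronger at 68. The median signal of the 89 members was 98.0, against 153.8 for the gap peaks beside them. Members outside the gap without such a peak had a median of 115.2. Peaks also overlapped one another. Of the members, 71 (18.1%) shared bases with another peak of the main list, against 10.6% of the divergent class and 11.4% of all peaks. All 17 members with a signal below 10 were among them, and they were 4.34% of the members, against 0.674% of the divergent class and 1.76% of all peaks. The lowest included mod/krz, with a signal of 2.57, and Hgsnat/CG4041, with 2.72. A weak summit of this kind can be matched to its neighbour's peak in the own lists, and the part of overlapping peaks in the lower median was not tested beyond leaving them out, which gave a ratio of 0.93.

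Recovery in both replicates' own lists was below that of the divergent class. The gap was wide in replicate 1, while in replicate 2 the intervals overlapped. A member counts as found where its peak shares at least 1 bp with a peak of the replicate's own list. Of the members 155 were found in both lists, which is 39.5% with an interval of 34.8 to 44.5%, against 62.8% (60.0 to 65.5%) of the divergent class and 43.4% of all main-arm peaks. Replicate 1's list held 51.8% (46.8 to 56.7%) of the members, against 80.8% (78.5 to 82.9%) of the divergent class and 60.2% of all peaks. Replicate 2's list held 66.3% (61.5 to 70.8%) of the members, against 71.3% (68.6 to 73.8%) of the divergent class and 61.5% of all peaks. The members were thus below the background in replicate 1, and in replicate 2 the background was at the lower end of their interval. The conservative list held 63.5% of the members, against 68.4% of all peaks. Neither own list held 84 members, 21.4% of them, against 21.7% of all main-arm peaks.

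By arrangement, both own lists held 46.2% (37.9 to 54.7%) of the same-strand summits, 54.5% (34.7 to 73.1%) of the facing ones and 34.5% (28.7 to 40.7%) of those outside the gap. Signals of the 155 members in both lists ranked alike in the replicates, with a Spearman coefficient of 0.70 across peaks, against 0.76 across the 3037 peaks in all. These are descriptions across peaks of the same pair of libraries.

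**Figure D4:**
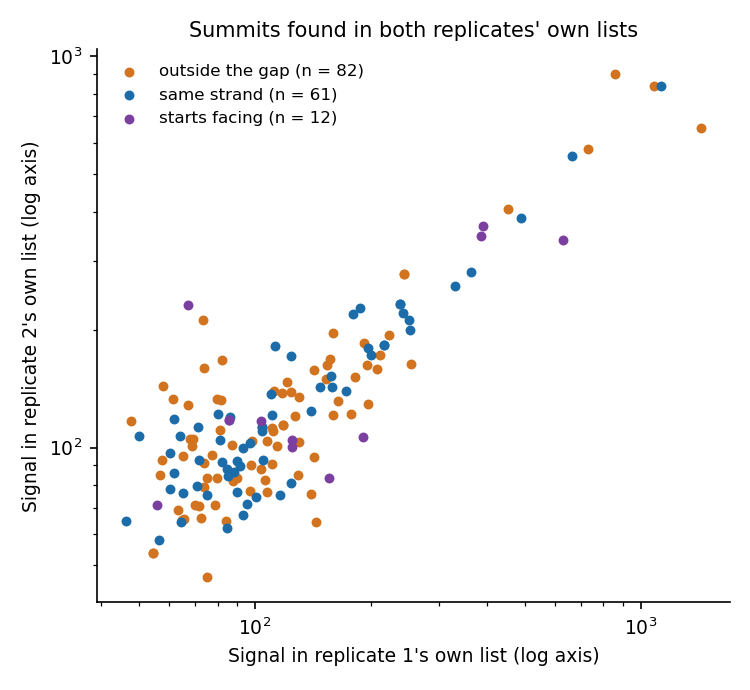
Signal of each of the 155 members found in both own lists, in replicate 1 (horizontal) and in replicate 2 (vertical), both on log axes, coloured by arrangement. The points run along a diagonal, with the scatter largest among the weak peaks and facing and same-strand summits spread over the same range as those outside the gap.

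The members lay mostly inside genes. The summit was in a 5′ untranslated region at 210 members (53.6%), in an intron at 79, between genes at 59, in a coding exon at 36 and in a 3′ untranslated region at 8. Same-strand members were more often between genes, at 58 of 132 (43.9%). The position is partly set by the rule, since a summit outside the gap of a divergent pair is downstream of a start by construction. These shares were not counted for all main-arm peaks or the other classes, so whether the members differ from them was not tested.

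Base composition followed the arrangement. Within 50 bp of the summit, G and C made up 43.5% ± 10.1 (SD over the 392 summits) of the bases, against 36.2% ± 10.4 in the divergent class and 39.4% ± 11.1 over all main-arm peaks. In the windows 500 bp to either side the members had 44.0% and the divergent class 48.4%. The divergent summits were thus far lower than their flanks. The mean over all members was close to that of their flanks, but the arrangements differed. By arrangement the mean was 40.5% at same-strand summits, against 43.2% in their flanks. At facing starts it was 42.3%, against 44.9%, and outside the gap 45.3%, against 44.4%. Among same-strand summits the mean was 37.4% upstream of both starts, 40.1% between and 45.3% downstream of both. Their flanks had 40.1%, 46.2% and 42.6%, so only the summits downstream of both were above their flanks. Single-gene summits showed the same contrast of sides. They had 40.2% upstream of the start, against 42.2% in their flanks, and 44.8% downstream, against 41.4%. The members' mean was 40.4% in replicate 1's own list and 43.2% in replicate 2's, against 36.3% and 38.8% of all peaks in those lists.

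Of the 12 motifs searched, the DREF element TATCGATA had the highest share at the members relative to their flanks, 4 times. This ratio was 10.1 in the divergent class and 7.33 over all main-arm peaks. It was 31.5 upstream and 2.8 downstream of single-gene starts, where the 31.5 rests on 4 of 3466 flank windows. Motifs were searched on both strands within 50 bp of the summit, and CGATA is contained in TATCGATA. TATCGATA occurred at 20 members, 5.10% (3.33 to 7.75%), against 6.82% of the divergent class and 2.51% of all main-arm peaks. In windows 500 bp away it occurred at 1.28% for the members, and the arrangements differed in these flanks. It was in 10 of 520 such windows at opposite-strand members and in 0 of 264 at same-strand members. The share at member summits was 5.88% in replicate 1's own list and 4.53% in replicate 2's, against 3.31% and 2.38% of all peaks of those lists. Single-gene summits had 3.64% upstream and 0.81% downstream of the start. Among the members it was present at 7 of 132 same-strand summits, at 13 of 238 outside the gap and at 0 of 22 facing ones, which allows a share of up to 13.6%, taking a count of 0 to allow 3.

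The members with TATCGATA that are named by their sequences had signals of 193 to 327. Rab8/Usp32, where Rab8 is a small GTPase of vesicle traffic, had 327, with 156 in replicate 1 and 168 in replicate 2. Its summit was 16 bp inside Rab8. P5CDh1/CG14563 had 249, with 110 in replicate 1 and 137 in replicate 2, at 30 bp upstream of P5CDh1, which encodes a mitochondrial enzyme of proline breakdown. Stt3A/bves had 212, with 108 in replicate 1 and 104 in replicate 2. Stt3A is a catalytic subunit of the oligosaccharyltransferase, and the summit was 601 bp inside it. mRpS18B/Kua had 193, with 98.3 in replicate 1 and 104 in replicate 2, at 8 bp inside mRpS18B, which encodes a mitochondrial ribosomal protein.

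The short core CGATA occurred at 23.5% (19.5 to 27.9%) of the members, against 32.9% of the divergent class and 18.6% of all peaks, with 15.2% in the members' flanks. Motif 1's core GGTCACAC occurred at 10 members, 2.55%, against 2.95% of the divergent class and 1.59% of all peaks, and its interval of 1.39 to 4.63% includes both. Of these 10, 9 lay outside a divergent gap and 1 at a same-strand pair. At P5cr/GatA, a proline synthesis enzyme and a subunit of the mitochondrial glutamyl-tRNA amidotransferase, the signal was 351, with 159 in replicate 1 and 196 in replicate 2. At RpLP1/CG13690, where RpLP1 is an acidic ribosomal protein of the stalk, it was 167, and the summit was 2 bp inside RpLP1 and in neither own list.

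Other elements stood near or below the list's background. Motif 6's core GTATNTTT occurred at 3.83% of the members, against 4.81% of all peaks, and the A tract AAAAAAA at 6.63%, against 10.4%. The initiator TCAGT occurred at 20.2% and the TATA box TATAAA at 11.7%, against 19.2% and 15.2% of all peaks. The core CAGTAGC of the odd-skipped family's motif was found at 1 member, Fatp1/Lrr47. This is 0.255% with an interval of 0.045 to 1.43%, which includes the 0.743% of all peaks. The longer ACAGTAGC was at 0 of 392, which allows a share of up to 0.765%, against 0.129% of all peaks. Without a list of motifs, the 7-base words with the largest difference from the flanks were ATCGATA, at 7.91% of the members against 1.91% of their flanks and 5.81% of all peaks, and TCGATAA, followed by AGTGTTG and AAAACAA with equal differences. AGTGTTG was at 5.61%, against 1.15% of the flanks and 3.54% of all peaks, and AAAACAA at 10.7%, against 6.25% of the flanks and 8.54% of all peaks. The E-box CAGCTG occurred at 5.87% and GAGAGAG, bound by the GAGA factor, at 2.55%, against 4.94% and 2.44% of all peaks.

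**Figure D5:**
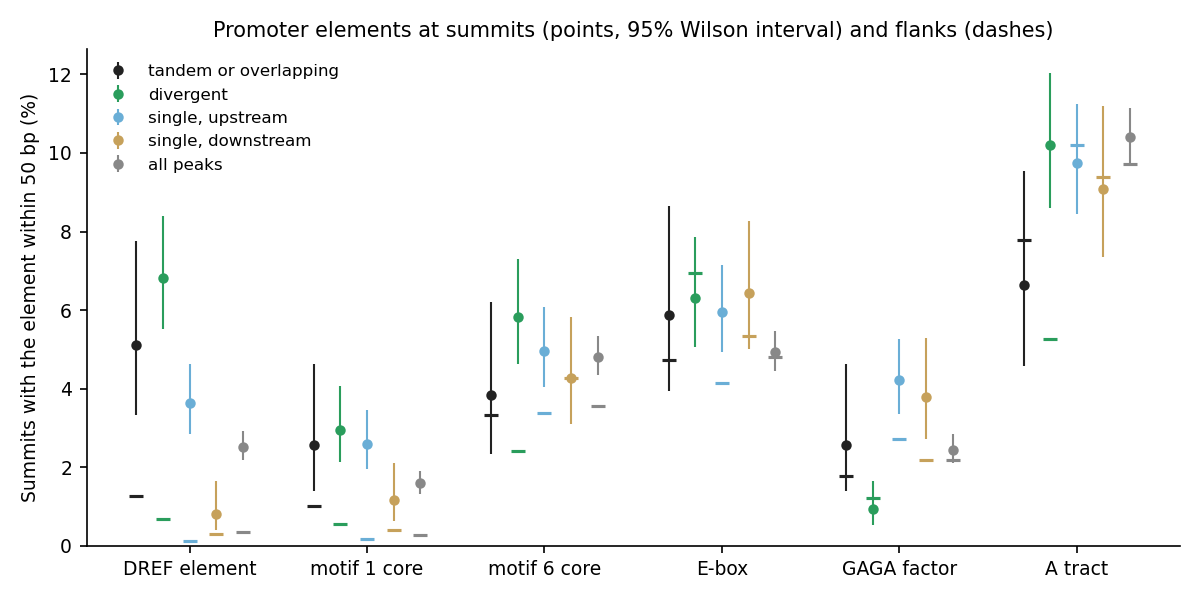
Percent of summits with a promoter element within 50 bp (points, with 95% Wilson intervals) and of windows 500 bp away (dashes), for the tandem or overlapping class and for the divergent, single-gene and all main-arm peaks. The DREF element reaches 5.10% at the members and 6.82% in the divergent class, against 0.81% at summits downstream of a single gene.

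Genes of the translation machinery and of mitochondria were among those touched. Of 93 cytoplasmic ribosomal protein genes 15 had a member summit within reach (16.1%, 10.03 to 24.9%), against 5.18% of all protein-coding genes. RpL3/CG6693 had a signal of 295, with 73.4 in replicate 1 and 211 in replicate 2, at 35 bp inside RpL3, which encodes a protein of the large ribosomal subunit. RpS6/bys, which pairs a small-subunit protein with the ribosome assembly factor bystin, had 203, with 111 in replicate 1 and 112 in replicate 2. RpL3 differed between the replicates by far more than RpS6.

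Of 73 mitochondrial ribosomal protein genes 7 were touched (9.59%, 4.72 to 18.5%), with mRpL18 (215) and mRpS18B (193) the highest. The 5.18% of all protein-coding genes lies within that interval. Of 87 genes of the respiratory chain and ATP synthase 9 were touched (10.3%), with an interval of 5.54 to 18.5% that begins just above the 5.18%. Among them ATPsynCF6, a subunit of the ATP synthase, had 261 at Sec13/ATPsynCF6, with 117 in replicate 1 and 138 in replicate 2, and its partner Sec13 is a coat protein of vesicles. The translation factors had 3 of 52 genes (5.77%): eIF6, eIF3h (287) and eIF4G2 (85.7). The aminoacyl-tRNA synthetases had 2 of 35 (5.71%), with LeuRS-m the highest. The spliceosome had 3 of 32 (9.38%, 3.24 to 24.2%), Sf3b3 (139), Sf3b2 (98.9) and SmE (80.5). RNA polymerase subunits, basal factors and Mediator had 4 of 80, led by MED19 (163), and the proteasome 1 of 48, Prosbeta4 (82.6).

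Gene families that lie side by side in arrays were rarely touched. Of 559 genes of odorant and gustatory receptors, cuticle proteins, cytochrome P450s, glutathione transferases and similar families 6 had a member summit (1.07%, 0.493 to 2.32%), against 5.18% of all protein-coding genes. The highest was Cyp6u1, followed by Cpr73D, GstO1 (148) and E(spl)mdelta-HLH (145), the last a repressor of the Notch pathway. Neither the 4 genes of the odd-skipped family nor the 28 segmentation and Hox genes had any, which for the 28 allows a share of up to 10.7%. Genes known only by a CG or CR number had 252 of 6097 (4.13%).

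Seen from the genome, the share of same-strand pairs with a summit within reach of both genes was lower the farther apart their starts lay, and the stretch within reach of both starts also shrinks with that distance. Of 360 neighbouring pairs with a shared start, 164 (45.6%, 40.5 to 50.7%) had a summit of any class within 1000 bp of both starts, and 76 (21.1%) had a member summit. Same-strand pairs with starts over 500 and up to 1000 bp apart had a summit of any class at 66 of 396 (16.7%). At over 1000 and up to 2000 bp apart it was 24 of 1613 (1.49%). Facing pairs up to 500 bp apart had one at 47 of 76 (61.8%, 50.6 to 71.9%), against 1028 of 1953 (52.6%) of the divergent pairs up to 500 bp apart. At over 500 and up to 1000 bp apart it was 2 of 28 facing pairs (7.14%), against 277 of 662 divergent pairs (41.8%). Over all distances it was 13.1% of the facing pairs, against 39.1% of the divergent pairs, but the mix of distances differed. Starts were over 1000 bp apart at 300 of the 405 facing pairs and at 825 of the 3440 divergent pairs. At that distance 1.00% of the facing and 4.85% of the divergent pairs had a summit. Taken 1 gene at a time, 32.9% of the protein-coding genes were within 1000 bp of a summit.

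The members' shares of arms X and 2R lay outside those of all peaks in the main list, but the arms' shares of protein-coding genes, 15.7% on X and 20.5% on 2R, lay within the members' intervals. Arm X held 49 of the members, 12.5% (9.59 to 16.1%), against 17.4% of all main-arm peaks, and this was 13.4% against 18.9% in replicate 1's own list and 11.7% against 15.4% in replicate 2's. Arm 2R held 93, or 23.7% (19.8 to 28.2%), against 19.2% of all peaks, with 23.5% against 18.6% in replicate 1 and 22.3% against 20.04% in replicate 2. Chromosome 4 held 1 member, at ATPsynbeta/CG11076.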

How the data were processed

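Per the labels, peaks were deposited on the dm6 build from 2 biological replicates. The main and the conservative list were made from both replicates, and each replicate also has a thresholded list, called its own list here, and a longer ranked list, per the deposited file lists. The signal per peak is the authors' caller value and was used as deposited. For aligner and caller the sources used here give no name, and the depth is unknown. Nothing was counted from reads.

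Summits were compared, counting positions from 1, with protein-coding start sites of Ensembl release 115 (annotation version 6.54). Sequence came from RefSeq. Python 3.11.15, pandas 2.3.3, NumPy 2.4.6, SciPy 1.17.1 (Wilson intervals) and matplotlib 3.10.9 were used. The class rule was tested on simulated start sites. Members, gene lists and motifs were chosen with earlier results of these data known. Named are the genes of the 12 highest members, the 4 highest per arrangement and per position, up to 4 per gene list, up to 3 with the most genes and the 3 lowest. Some genes that this rule names are not reported here. Any other gene named was chosen after its values were seen. The alternatives were other lists, distances, start sites, windows and gene models.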

Additional observations from a re-analysis of the deposited data

How the results depend on the processing

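Of 97 repeated values 63 moved by less than the spread between the replicates (for the count, stayed within 1.5 times), and 34 moved further. None of the moved values has a test behind it, and the cause was not tested. The number of members, 392, was 158 among the stronger 50% of peaks, 205 with start sites within 500 bp, 776 within 2000 bp and 593 with 1 start site per gene. With 1 replicate left out, that is from the other's own list, it ranged from 187 to 309. The share of summits became 2.93% at 500 bp, 11.1% at 2000 bp and 8.47% with 1 start per gene.

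The same-strand share was 42.4% in the stronger 50%, 46.8% at 2000 bp and 19.7% with 1 start per gene, and 31.7 to 43.3% with 1 replicate left out. Summits upstream of both starts were 16.5% in the stronger 50%, 22.0% at 500 bp and 6.41% with 1 start per gene, and 12.3 to 18.2% with 1 replicate left out. Summits between the starts were 3.90% at 500 bp and 22.7% at 2000 bp, and 11.3 to 20.9% with 1 replicate left out.

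The ratio of median signals was 0.91 in the stronger 50% and 1.00 with 1 start per gene, where the lower signal of the members was no longer seen. It was 0.93 among peaks that overlap no other. The share in both own lists was 55.8% in the conservative list, 79.1% in the stronger 50% and 29.3% when 50% of both peaks had to overlap, and 57.6 to 69.5% with 1 replicate left out, where a peak is always in 1 of the lists. TATCGATA was at 6.34% at 500 bp, 2.04% in windows of 25 bp and 9.18% in windows of 100 bp, and its core at 23.5%. GC content was 39.3% in the stronger 50% and 40.8% with 1 start per gene, and 40.4 to 43.2% with 1 replicate left out.

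RefSeq gene models and the peaks that overlap no other were chosen after seeing the data, and with RefSeq models all 9 results stayed within the spread. No paired analysis was possible because there is 1 group and no comparison between groups.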
